A study of Mus musculus with 12 samples.

Results

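The interferon regulatory factors (IRFs) are the transcription factors that switch interferon genes and interferon-stimulated genes on and off. Their genes were chosen by symbol, as Irf1, Irf2, Irf3, Irf4, Irf5, Irf7 and Irf8, and all 7 were found on the mouse PanCancer immune panel of the nCounter system, which counts RNA molecules of 770 genes with barcoded probes. Of these genes, 750 are endogenous and the others are housekeeping genes. They were measured in whole tumors of CT26, a mouse colon carcinoma line, grown under the skin of the dorsal flank of Balb/c mice of 6 to 10 weeks of age. Dosing began once tumors had reached 130 to 170 mm3 by the sample annotation, while the text of the study gives a smaller volume. From separate mice, 12 tumors were removed 4 days after dosing began. Vehicle, DSP-0509 at 5 mg/kg intravenously, anti-PD-1 antibody (clone RMP1-14) at 200 µg per mouse intraperitoneally, and the combination of both were given to 3 mice each. DSP-0509 is a small-molecule agonist of TLR7, an endosomal receptor for single-stranded RNA, and the antibody blocks PD-1, an inhibitory receptor of T cells. CT26 is 1 established line, and every tumor held both its cells and those of an immunocompetent host.

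All IRFs bind DNA through a related amino-terminal domain that recognizes repeats of GAAA, the core of the interferon-stimulated response element. IRF3 is made constitutively and is activated by phosphorylation downstream of cytosolic and endosomal nucleic acid sensors, whereas the gene for IRF7 is itself interferon-induced and IRF7 drives type I interferon production downstream of TLR7 and TLR9. IRF5 also acts downstream of TLR7 through MyD88 and drives inflammatory cytokine genes. IRF1 is induced by IFNγ and activates genes of antigen presentation, and IRF2 occupies the same sites and can oppose IRF1. IRF4 and IRF8 are factors of lymphocyte and myeloid development, and IRF4 competes with IRF5 for MyD88.

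The sequences before the start sites are shown for Irf1 and Irf7, which rose with the combination, and for Irf2 and Irf8. Irf1, Irf2 and Irf8 are the members whose windows held a match to the letters described below, so the sequences shown favor matches. All 7 members matched RefSeq promoter entries of GRCm38.p6, with 9 start sites in all, since Irf1 and Irf8 have a second one. Each stretch is the 250 bases before the start site of the promoter entry, written 5′ to 3′ on the gene's strand. Some start sites lie inside the RefSeq bounds of the gene. For Irf7 (chr7:141263183-141266499) part of the window, and for Irf5 (chr6:29526130-29541869) all of it, is therefore sequence of the gene itself. The same holds for the whole second windows of Irf1 and Irf8. Capitals mark matches to TTCNNNGAA, the letters of the gamma-activated site (GAS), and to GAAA repeated after a gap of any 2 bases, the letters of the interferon-stimulated response element (ISRE), both searched on both strands.
Irf1, first start site, chr11:53769764-53770013, plus strand: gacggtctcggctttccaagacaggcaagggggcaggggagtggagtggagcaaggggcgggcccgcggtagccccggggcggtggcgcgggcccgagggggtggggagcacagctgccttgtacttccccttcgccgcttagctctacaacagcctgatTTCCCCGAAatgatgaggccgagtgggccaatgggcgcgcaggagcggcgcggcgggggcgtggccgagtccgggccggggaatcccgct
Irf2, chr8:46739495-46739744, plus strand: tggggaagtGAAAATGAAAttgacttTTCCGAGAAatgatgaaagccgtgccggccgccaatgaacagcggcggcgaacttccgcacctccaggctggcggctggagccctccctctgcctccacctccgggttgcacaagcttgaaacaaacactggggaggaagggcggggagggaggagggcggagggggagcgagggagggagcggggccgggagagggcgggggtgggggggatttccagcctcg
Irf7, chr7:141266425-141266674, minus strand: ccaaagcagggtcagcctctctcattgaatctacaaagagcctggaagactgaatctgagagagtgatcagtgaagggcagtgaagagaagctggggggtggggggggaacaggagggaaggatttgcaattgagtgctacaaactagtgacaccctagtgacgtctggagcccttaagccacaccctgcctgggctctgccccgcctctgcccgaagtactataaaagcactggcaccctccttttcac
Irf8, first start site, chr8:120736108-120736357, plus strand: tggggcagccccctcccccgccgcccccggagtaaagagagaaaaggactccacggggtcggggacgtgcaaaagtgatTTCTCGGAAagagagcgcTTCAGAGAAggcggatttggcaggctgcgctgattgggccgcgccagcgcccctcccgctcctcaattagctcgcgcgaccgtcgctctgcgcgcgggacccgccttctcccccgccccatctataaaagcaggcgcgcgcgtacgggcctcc
The Irf1 window held 1 GAS-like match, TTCCCCGAA, whose first base lay 90 bases before the start. The Irf2 window held GAAAATGAAA at 241 bases and TTCCGAGAA at 224 bases before the start, and the Irf8 window held TTCTCGGAA at 171 and TTCAGAGAA at 153 bases. No matches overlapped. The windows of Irf3, Irf4, Irf5 and Irf7 and the second windows of Irf1 and Irf8 held neither run of letters. Over 32851 mouse promoter windows of the same length, 7.02% held the GAS-like letters and 2.98% the ISRE-like letters, so that 3 of 7 members with the former and 1 of 7 with the latter are given as a description only.

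Values are normalized counts, that is molecules counted for a gene times 1 factor per tumor, and fold changes are on the scale of log2(value + 1). A gene was called changed at an adjusted p under 0.05 in limma, with Benjamini-Hochberg adjustment over the 646 endogenous genes that had at least 20 normalized counts in at least 3 tumors. All 7 members were among them. Total counts, estimated from the steps of the values, ran from 750416 to 1155697 per tumor. In these bulk tumors, more cells of a type and more RNA per cell cannot be told apart.

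Irf1 and Irf7 were the members that rose in tumors given the combination. Against vehicle, Irf1 was 2.39-fold and Irf7 2.02-fold higher. Irf2, Irf4, Irf5 and Irf8 had values of 1.27 to 1.82-fold that did not pass the test, and Irf3 was at 0.921 of the vehicle level. These 2 of 7 calls stand beside 22% of all 646 genes called in either direction (21.5% higher and 0.464% lower). The median log2 fold change of the 7 members was 0.86, against 0.34 over all genes tested. At an unadjusted p under 0.05, 6 of the 7 members passed, beside 37.8% of all genes. The calls depended on the scaling of the tumors. Rescaling to the housekeeping genes called Irf2, Irf4, Irf5 and Irf8 as well, beside 232 of 646 genes. Quantile normalization and centring on the median gene called Irf1 and Irf3 but not Irf7, beside 135 and 199 genes.

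Irf1, the IFNγ-inducible activator of antigen presentation genes, separated the groups most clearly. Its normalized counts were 2217, 2457 and 2269.9 in the vehicle tumors, 4442, 3788 and 3248 with DSP-0509, 3235, 3787 and 4063 with anti-PD-1 antibody, and 4985, 5713 and 5941 with the combination. Every treated tumor was above every vehicle tumor, and every combination tumor was above every tumor given a single agent, while DSP-0509 and anti-PD-1 antibody overlapped. The group means were 2315 ± 126, 3826 ± 598, 3695 ± 421 and 5546 ± 499 (SD, n = 3) in the same order. Against vehicle, the log2 fold change with the combination was 1.26 (SE 0.15, adjusted p = 0.000878, limma), and Irf1 was called in every one of the 26 alternative settings, with values of 0.73 to 1.34. Irf1 was also the member that passed the F test for any difference among the 4 groups (adjusted p = 0.00861, limma), beside 5.42% of all genes. That call was lost when the first vehicle tumor was left out.

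With single agents Irf1 did not pass, and its value with DSP-0509 stood near the threshold. The log2 fold change was 0.71 (SE 0.15, adjusted p = 0.0522, limma) with DSP-0509 and 0.67 (SE 0.15, adjusted p = 0.132) with anti-PD-1 antibody, and 0.774% and 0% of all genes were called in these comparisons, while 16.3% and 12.8% reached an unadjusted p under 0.05, with Irf1 as the member among them in both. All 3 comparisons share the vehicle tumors. In a fit that blocked on replicate number, Irf1 passed against vehicle for anti-PD-1 antibody (adjusted p = 0.0429, limma). No source says that equal numbers mark paired tumors, so this call rests on an assumed pairing. Without the first anti-PD-1 antibody tumor, which is in neither group compared, the DSP-0509 comparison passed as well (adjusted p = 0.0357, limma). When any other tumor was left out instead, it did not pass, with adjusted p up to 0.172. Of the 26 alternative settings, Irf1 was not called in 19 for DSP-0509 against vehicle. For anti-PD-1 antibody against vehicle it was not called in 23. On the log2 scale the combination was at 0.54 (SE 0.15, adjusted p = 0.311) relative to DSP-0509 and at 0.59 (SE 0.15, adjusted p = 0.303) relative to anti-PD-1 antibody. No gene passed in either of these comparisons, and an unadjusted p under 0.05 was reached by 9.91% of genes, with Irf1 and Irf2 among them, above DSP-0509 and by 10.2%, with Irf1 among them, above anti-PD-1 antibody.

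**Figure D1:**
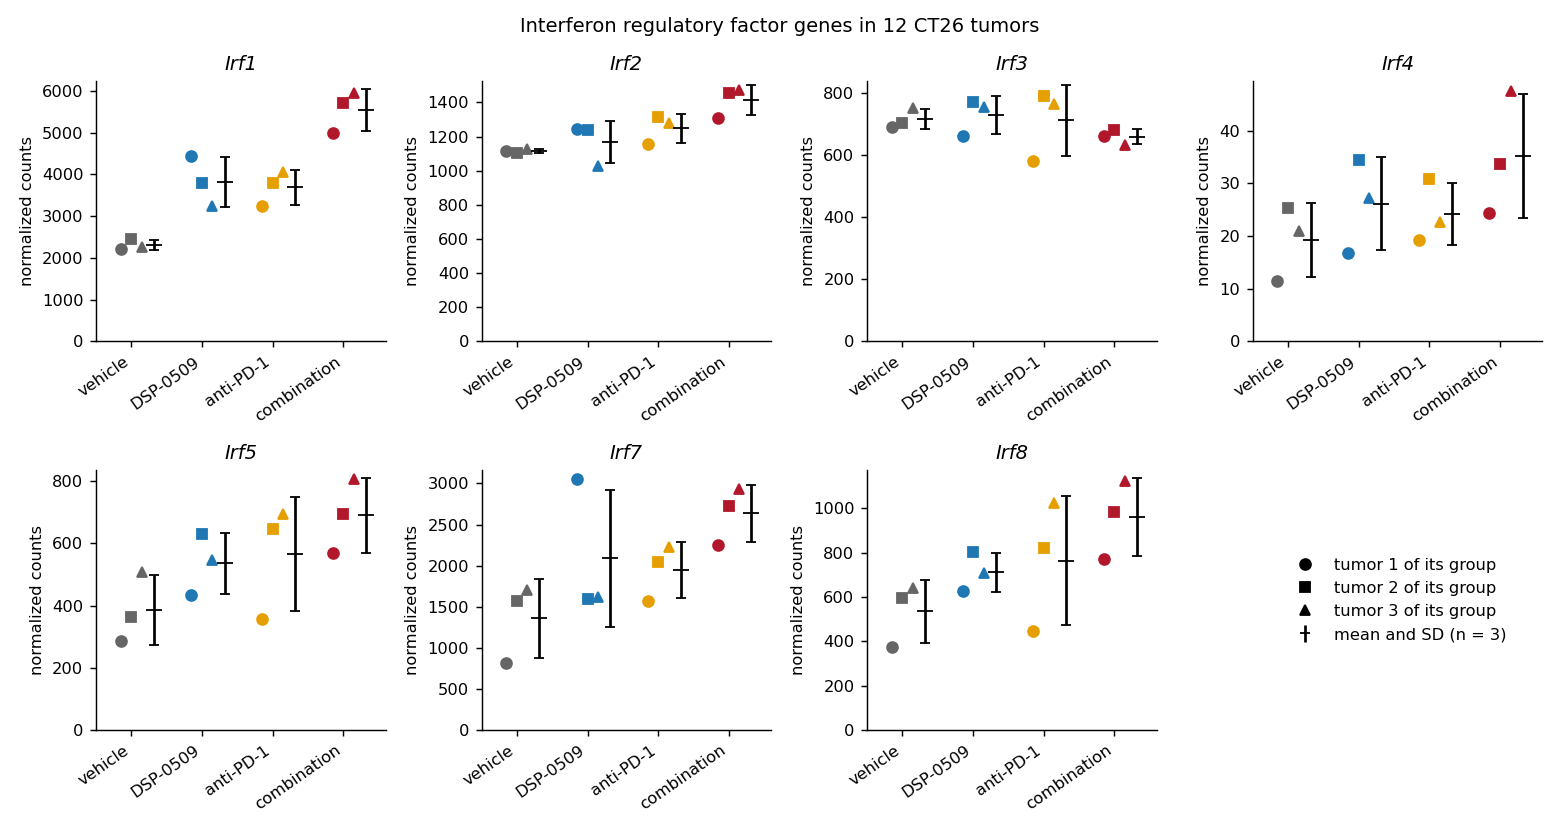
Normalized counts of the 7 Irf genes in each of 12 tumors (points, shape gives the tumor number within its group), by treatment group, with the mean and SD of each group (n = 3) to the right of its points; all axes start at 0. The Irf1 points of the combination lie from 4985 to 5941, above all others, whereas the Irf3 points lie close together in all groups.

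Irf2, which can occupy the same sites as IRF1, had small differences. Its normalized counts were 1115, 1101 and 1129 in vehicle tumors, 1242, 1238 and 1028 with DSP-0509, 1154, 1316 and 1279 with anti-PD-1 antibody, and 1311, 1454 and 1474 with the combination. Combination tumors lay above all vehicle and all DSP-0509 tumors. The combination log2 fold change of 0.34 (SE 0.12, adjusted p = 0.0719, limma) lay at the median of all genes. It turned to -0.02 with quantile normalization and to -0.19 with each tumor centred on its median gene.

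Because a ratio of 2 genes in one tumor does not depend on how that tumor was scaled, Irf1 was also set against Irf2. The log2 ratio of Irf1 to Irf2 was 0.99, 1.16 and 1.01 in vehicle tumors, 1.84, 1.61 and 1.66 with DSP-0509, 1.49, 1.52 and 1.67 with anti-PD-1 antibody, and 1.93, 1.97 and 2.01 with the combination. Vehicle was lowest and the combination highest with no overlap, and the single agents overlapped each other. The 4 groups differed (exact permutation F test, which has no direction, over 369600 assignments, p = 0.000195, adjusted over 3 ratios p = 0.000584). The ratio was chosen with earlier results of these data known, and genes other than members were not put through this test. The combination exceeded vehicle by 0.92 (SE 0.06), DSP-0509 by 0.27 (SE 0.07) and anti-PD-1 antibody by 0.41 (SE 0.06), each with an exact permutation p of 0.1, two-sided, the smallest that 3 tumors against 3 allow. Leaving out each tumor in turn kept the difference from vehicle between 0.89 and 0.97, with an adjusted p of at most 0.00253.

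**Figure D2:**
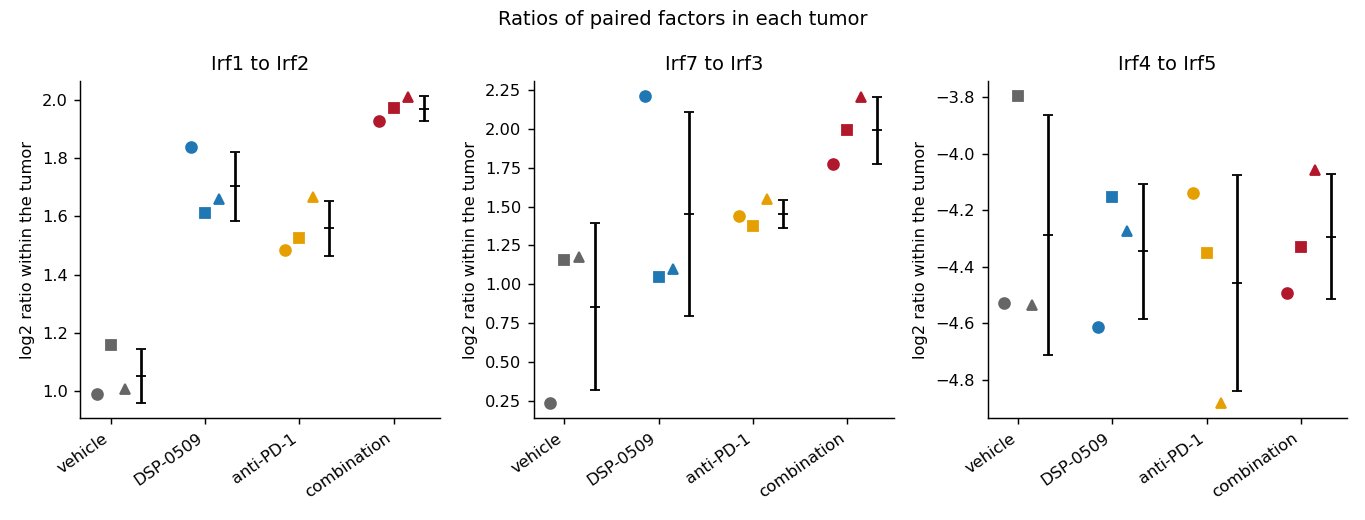
Log2 ratio of the normalized counts of 2 Irf genes in the same tumor (points, shape gives the tumor number) for Irf1 to Irf2, Irf7 to Irf3 and Irf4 to Irf5, by group, with mean and SD (n = 3) to the right of the points; each panel has its own axis, which does not start at 0. The Irf1 to Irf2 ratio rises from 0.99 to 1.16 in vehicle tumors to 1.93 to 2.01 in combination tumors, and the Irf4 to Irf5 ratios of all groups overlap.

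Irf7, the interferon-induced factor of type I interferon production, had the second-largest change of the members with the combination. Normalized counts were 813, 1566 and 1702 in vehicle tumors, 3055, 1591 and 1618 with DSP-0509, 1572, 2049 and 2231 with anti-PD-1 antibody, and 2256, 2721 and 2928 with the combination. Combination tumors lay above all vehicle and all anti-PD-1 antibody tumors, while the first DSP-0509 tumor was higher than any of them and the other DSP-0509 tumors lay within the vehicle range. The log2 fold change of the combination against vehicle was 1.02 (SE 0.32, adjusted p = 0.0466, limma). This call was lost in 16 of 26 alternatives, among them 9 of the 12 that left out 1 tumor. It was kept without the third vehicle, the first DSP-0509 or the first anti-PD-1 antibody tumor, and fell to 0.68 (adjusted p = 0.163) without the first vehicle tumor. With DSP-0509 the value was 0.62 (SE 0.32, adjusted p = 0.345), or 0.31 without its first tumor and 0.28 without the first vehicle tumor, and with anti-PD-1 antibody it was 0.58 (SE 0.32, adjusted p = 0.457).

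Irf3, the constitutive counterpart of Irf7, had the smallest differences from vehicle of the members in the deposited scaling, with each treatment. Its normalized counts were 690.2, 703 and 752 in vehicle tumors, 659.5, 771 and 754 with DSP-0509, 579.9, 791 and 763 with anti-PD-1 antibody, and 659.8, 682 and 634 with the combination. All combination tumors lay below all vehicle tumors, which 6.35% of genes did. The log2 fold change was -0.12 (SE 0.14, adjusted p = 0.598, limma) as deposited, and Irf3 was called lower at -0.50 (adjusted p = 0.0286) with quantile normalization and at -0.65 (adjusted p = 0.0144) with centring on the median gene. These scalings moved the median of all genes from 0.34 to -0.13 and -0.19, and relative to the median of all genes Irf3 lay at -0.46, -0.38 and -0.46 in the 3 scalings, whereas Irf1 lay at 0.92, 1.01 and 0.92. The Irf7 to Irf3 log2 ratio averaged 0.86 ± 0.54, 1.45 ± 0.66, 1.45 ± 0.09 and 1.99 ± 0.22 (SD, n = 3) in the 4 groups in the same order. Its groups did not pass together (exact permutation F test, p = 0.0689, adjusted p = 0.103), and passed once the first DSP-0509 tumor, with a ratio of 2.21, was left out (adjusted p = 0.00536).

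**Figure D3:**
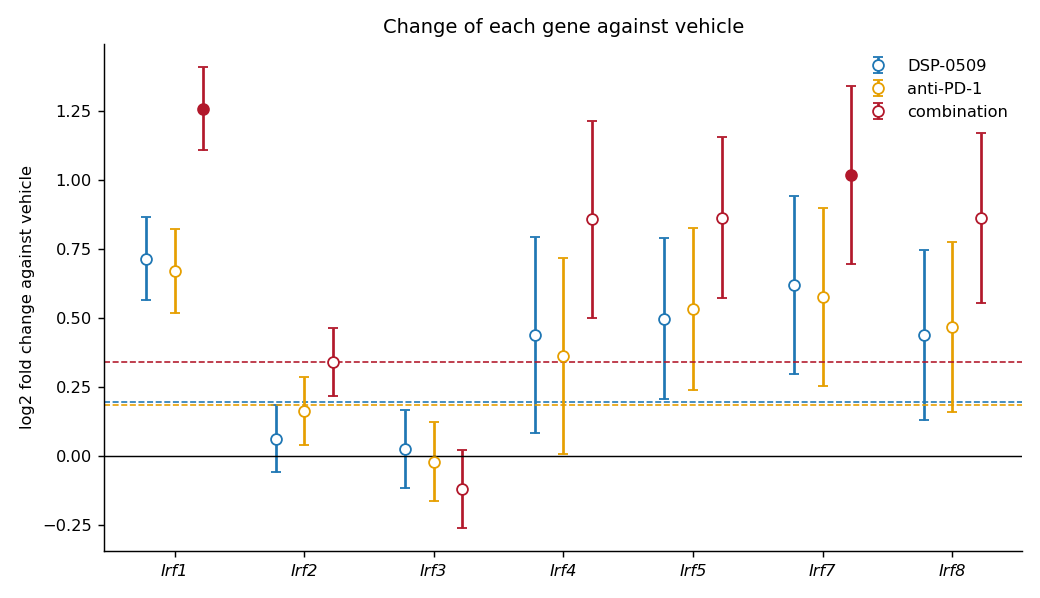
Log2 fold change of each Irf gene in the 3 treated groups against vehicle (points, colored by treatment, bars are the SE of the limma fit over 12 tumors, filled where the adjusted p is under 0.05), with the median of all 646 genes of each comparison as a dashed line. Filled points are those of Irf1 (1.26) and Irf7 (1.02) with the combination; Irf2 and Irf3 lie at or below the medians, and the sign of Irf2 with the combination turns under quantile normalization and under centring on the median gene.

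Irf5, the MyD88-dependent factor of inflammatory cytokine genes, had normalized counts of 286, 364 and 507 in vehicle tumors, 434, 629.8 and 545 with DSP-0509, 356, 646 and 695 with anti-PD-1 antibody, and 568, 695 and 807 with the combination. Irf8, which myeloid and dendritic cells need for their development, had 374, 594 and 638, then 625, 802 and 707, then 447, 820.4 and 1021, then 772, 984 and 1122 in the same order. For both genes the combination and vehicle tumors did not overlap, and tumors given a single agent overlapped with both. The log2 fold change of the combination was 0.86 for Irf5 (SE 0.29, adjusted p = 0.0582, limma) and 0.86 for Irf8 (SE 0.31, adjusted p = 0.0693). Single agents gave 0.44 to 0.53 for these 2 genes, with adjusted p from 0.401 to 0.555.

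Irf4, a factor of activated lymphocytes and plasma cells, was close to the background of the assay. Its normalized counts were 11.4, 25.2 and 20.9 in vehicle tumors, 16.8, 34.5 and 27.2 with DSP-0509, 19.3, 30.7 and 22.6 with anti-PD-1 antibody, and 24.3, 33.6 and 47.6 with the combination. Read back from the steps of the deposited values, these are an estimated 11 to 51 molecules per tumor. The mean of the 8 negative control probes was 6.25 to 12.5 counts per tumor and the highest single one 12 to 21. The groups overlapped throughout, and the combination gave 0.86 (SE 0.36, adjusted p = 0.109, limma). The log2 ratio of Irf4 to Irf5 did not separate the groups (exact permutation F test, p = 0.903, adjusted p = 0.903), with group means from -4.46 to -4.29. Background was not subtracted in this ratio, and its difference between combination and vehicle was -0.0061. With the negative probe mean subtracted, that difference turned positive, so the ratio depends on the background.

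Across members, the tumors that lay wholly above vehicle were counted. Irf1 lay above all vehicle tumors in DSP-0509 tumors (1 member, beside 16.4% of genes), Irf1 and Irf2 did so with anti-PD-1 antibody (2 members, 12.4%), and Irf1, Irf2, Irf5, Irf7 and Irf8 did so with the combination (5 members, 38.5%). Above DSP-0509 lay the combination tumors for Irf1 and Irf2 (16.7% of genes), and above anti-PD-1 antibody those for Irf1 and Irf7 (15.5%). Below the other group without overlap lay Irf3 in the combination against vehicle, and no member in the other comparisons, where 2.01% to 4.49% of genes did (against vehicle 3.72% with DSP-0509 but 2.01% with anti-PD-1 antibody, and 2.94% and 3.1% for the combination against each of these). DSP-0509 and anti-PD-1 antibody overlapped for all 7 members, with 1.55% of genes higher and 4.49% lower. The 3 comparisons with vehicle share the same control tumors, and the first vehicle tumor was the lowest of its group for 6 of 7 members. The members' median log2 fold change was 0.44 with DSP-0509 and 0.47 with anti-PD-1 antibody, beside 0.20 and 0.18 over all genes.

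The agents were not told apart by the IRF genes. DSP-0509 against anti-PD-1 antibody gave log2 fold changes from -0.10 for Irf2 to 0.08 for Irf4, each smaller than its SE, which ran from 0.12 to 0.36, and each with an adjusted p of 0.999 (limma), while 3.87% of genes reached an unadjusted p under 0.05. The interaction of both treatments, the departure of the combination from the sum of the single-agent changes on the log2 scale, lay between -0.18 for Irf7 and 0.11 for Irf2 (SE 0.17 to 0.50, adjusted p = 1.00 for each), beside 1.39% of genes at an unadjusted p under 0.05. No member reached an unadjusted p under 0.05 in either test. A p of this size does not show that the agents act alike.

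**Figure D4:**
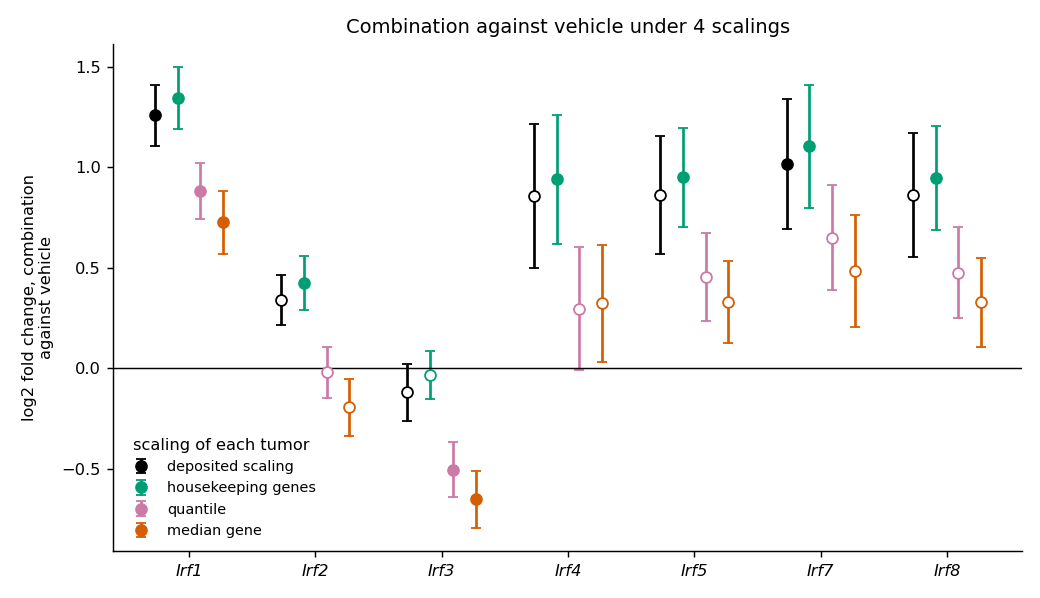
Log2 fold change of each Irf gene, combination against vehicle, under the deposited scaling, rescaling to the housekeeping genes, quantile normalization and centring of each tumor on its median gene (points, bars are the SE of the limma fit, filled where the adjusted p is under 0.05). Irf1 is filled under all 4 scalings, with values from 0.73 to 1.34, Irf3 is filled below 0 under the last 2, and Irf2 changes sign under these. Rescaling to the housekeeping genes also fills Irf2, Irf4, Irf5, Irf7 and Irf8, and Irf7 is not filled under the last 2.

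Some pairs of these genes varied together over the tumors and others did not. Of 21 pairs of members, Irf5 and Irf8 correlated most closely over the 12 tumors (Pearson r = 0.97, and 0.95 after the group means were taken out), and Irf1 and Irf2 had 0.86 and 0.85. The lowest values were -0.25 for Irf1 and Irf3 over the 12 tumors, and 0.083 for Irf3 and Irf7 after the group means were taken out. The 2 genes of each pair share library and scaling, so these are descriptions with no test. The first tumor was the lowest of its group for all 7 members with anti-PD-1 antibody and for 6 with the combination. With DSP-0509 the first tumor was the lowest for 4 members, but the highest of its group for Irf1, Irf2 and Irf7.

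For each member, genes with a similar pattern over the 12 tumors were picked from 639 other genes by the highest Pearson r. Irf1 was near to Gbp2b (r = 0.99), an interferon-inducible guanylate-binding protein, and to Tap1 (0.97), a peptide transporter. Irf7 was nearest to the interferon-stimulated genes Ifi44 (0.98), Oas2 (0.96) and Bst2 (0.95). Irf5 was nearest to Ptprc (0.98), which encodes the leukocyte surface phosphatase CD45, Fyn (0.97) and Ctsh (0.96), and Irf8 to Psen2 (0.98), Selplg (0.97) and Itga4 (0.97). Irf2 was nearest to Ctss, Stat2 and Socs1 (each 0.91), Irf4 to Ikzf1 (0.93), Pik3cd and Cxcr6 (both 0.90), and Irf3 to Gpr183 (0.85), Nup107 (0.84) and Casp8 (0.83). After the group means were taken out, close genes were Gbp2b (0.95) and Socs1 (0.94) for Irf1, Cxcl16 (0.94) for Irf2, Itga1 (0.95) and Casp8 (0.92) for Irf3, Nlrc5 (0.93) and Txnip (0.91) for Irf4, Tlr8 (0.99) and C1qa (0.98) for Irf5, Ifi44 (0.97) and Zbp1 (0.97) for Irf7, and Psen2 (0.98) and C1qb (0.97) for Irf8.

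The genes around the IRFs were read with the combination against vehicle, in the order in which the pathway runs. Of 8 sensors, adaptors and kinases of the TLR7 and TLR9 route to IRF5 and IRF7, none passed, with a median log2 fold change of -0.03. The group means of Tlr7, Tlr9 and Myd88 were higher with the combination than in vehicle. Those of the kinases Irak1, Irak4 and Chuk and of Traf3 and Traf6 were lower. Tlr9 had 58.2, 66.4 and 120 normalized counts in vehicle and 114, 141 and 212 in combination tumors. Tlr7 itself, the target of DSP-0509, had 0.61 (SE 0.36, adjusted p = 0.252, limma), with 70.7, 147 and 149 normalized counts in vehicle and 137, 214 and 189 in combination tumors. Of 7 sensors and adaptors of the route to IRF3, Zbp1 passed (1.68, SE 0.24, adjusted p = 0.00282), a cytosolic nucleic acid sensor, and the median was 0.49. The kinases of IRF3 and IRF7 and their scaffold gave 0.21 for Tbk1, 0.67 for Ikbke (adjusted p = 0.0907) and -0.04 for Tank, and none passed.

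Of 6 interferon ligands, Ifng was the only one above the filter. Its normalized counts were 12.5, 12.2 and 20.9 in vehicle tumors and 30.6, 33.6 and 70 in combination tumors, a log2 fold change of 1.44 (SE 0.38, adjusted p = 0.0236, limma) from counts near the background. Ifna1, Ifna2, Ifna4, Ifnb1 and Ifnl2 did not pass the filter and were between 4.67 and 20.1 normalized counts in every tumor, close to the negative probes, so their differences were not detectable at this depth on day 4. The receptor genes Ifnar1 (0.15), Ifnar2 (0.22) and Ifngr1 (0.15) did not pass. Among JAK-STAT genes, Socs1 (0.89, SE 0.24, adjusted p = 0.0269), an inhibitor of the pathway, rose, and Stat2 (1.01, adjusted p = 0.0538), Tyk2 (0.43), Jak1 (0.14) and Jak2 (0.02) did not pass.

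Of 22 genes induced by type I interferon, 20 were tested and 12 rose with the combination, with a median of 0.86, among them Ifit3 (1.23), Oas3 (1.19) and Xaf1 (1.09). Of 18 genes induced by IFNγ, 17 rose, with a median of 1.34, led by Gbp2b (2.20), Ido1 (2.09) and Gbp5 (1.95), and Nos2 (1.18, adjusted p = 0.073) did not pass. With DSP-0509 alone the counts were 0 of 20 and 3 of 18 (medians 0.38 and 1.02), and with anti-PD-1 antibody 0 of 20 and 0 of 18 (medians 0.39 and 0.79). Beside these counts stand 22% of all genes called with the combination and 0.774% with DSP-0509. The lists were chosen with earlier results of these data known, so the counts are descriptions, and the lists were not tested against each other. Pdcd1, which encodes PD-1, was at 1.78 (adjusted p = 0.0111) with the combination.

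**Figure D5:**
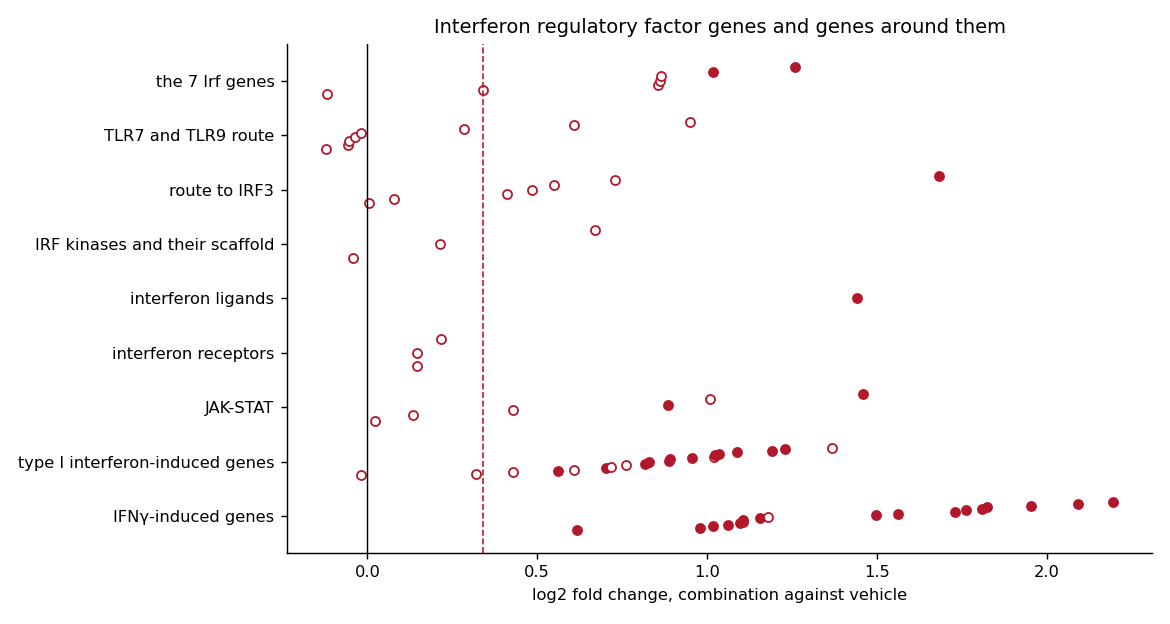
Log2 fold change of single genes, combination against vehicle, for the 7 Irf genes and for 8 groups of genes around them (each point is 1 gene, filled where the limma adjusted p is under 0.05; the vertical offset only separates points; the dashed line is the median of all 646 genes, 0.34). The TLR7 and TLR9 route holds no filled point, and 17 of 18 IFNγ-induced genes are filled.

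Markers of the cell types that such a tumor can hold were read in the same tumors. Of 4 pan-leukocyte markers none passed in the combination (Ptprc 1.03, adjusted p = 0.0622), but their summed normalized counts were 3167 to 4970 in vehicle, 4510.3 to 5741 with DSP-0509, 3538 to 5756 with anti-PD-1 antibody and 5098 to 6952 with the combination, with no overlap between vehicle and combination. T cell marker sums were 277 to 459 in vehicle, 614 to 623 with DSP-0509, 602 to 856 with anti-PD-1 antibody and 819 to 1695 with the combination, with 3 of 5 genes called there, and both CD8 genes rose. Macrophage sums were 4659 to 9246, 6152 to 8409, 4641 to 8939 and 8035 to 10231 in the same order, with 2 of 6 called in the combination, neutrophil markers had 2 of 4 called, and of the fibroblast markers 3 of 4. B cell markers were mostly below the filter (5 of 6), and no marker was listed at 0. Of those tested, epithelial (3), dendritic cell (4), NK cell (2), plasma cell (3) and endothelial (4) markers had none called. The part of these cells in the members' values was not tested.

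Set against the summed leukocyte markers Ptprc, Cd53, Cd37 and Lcp1 of the same tumor, a measure chosen after values had been seen, the log2 ratio of Irf1 was 0.68 (SE 0.19) higher with the combination than in vehicle. Vehicle tumors spanned -1.13 to -0.51 and combination tumors -0.23 to -0.03. For Irf7 the difference was 0.44 (SE 0.16), for Irf5 0.29 (SE 0.08), for Irf8 0.29 (SE 0.07), for Irf4 0.32 (SE 0.26), for Irf2 -0.23 (SE 0.20) and for Irf3 -0.69 (SE 0.22). Over the 4 groups none of the 7 passed in an exact permutation F test adjusted over 7 members (Irf1 adjusted p = 0.237, Irf3 adjusted p = 0.0573). Most of the leukocyte sum came from Lcp1, whose group mean was 3220 in vehicle and 4306 with the combination. Means in the same order were 672 and 1349 for Ptprc, 180 and 347 for Cd37, and 64.2 and 103 for Cd53. The ratios thus mainly set the members against Lcp1, and ratios to the other markers alone were not tested.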

How the data were processed

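The authors hybridized total RNA of whole CT26 tumors to nCounter probes and used nSolver 4.0 to normalize. As deposited, each value is a signal, namely a molecule count scaled by 1 factor per tumor, background is not subtracted, and the 14 control probes are unscaled. How the factor was chosen is not given in the sources used here, and a factor moves all genes of a tumor together. Values were taken to log2(value + 1), and the 646 of 750 endogenous genes that reached 20 in 3 or more tumors were fitted with limma 3.58.1 in R 4.3.3 over the 12 tumors, with no covariate and Benjamini-Hochberg adjustment within each of 6 comparisons, the interaction and an F test. Ratios were tested by exact permutation. Methods of the study name an unpaired t-test, which was run as an alternative. Figures were drawn with matplotlib 3.10.9 in Python 3.11.15. Total counts of 750416 to 1155697 per tumor and the molecule counts of Irf4 are estimates read from the steps of the values. They were not accepted as recovered counts, because the lowest value of a tumor is often several steps and control probes are unscaled, so no count model was run.

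Groups come from the treatment labels, with 3 mice per group, and p-values measure the spread between these mice. The members, gene lists and tests were chosen with earlier results of these data known. The rule for named genes took all 7 members, for each the 3 genes with the highest Pearson r and the 2 highest after group means were removed, up to 3 rises and 2 falls per pathway list, all members of lists of 6 or fewer, and Tlr7 and Pdcd1. The text gives part of these and the rest as counts, and some genes that the rule takes are not reported here. Tumors are numbered 1 to 3 in each group, with no source for what a number marks. As a check of pairing, the correlation between the deviations of tumors with equal numbers was 0.18 to 0.68 for vehicle and anti-PD-1 antibody, 0.32 to 0.59 for DSP-0509 and combination, and 0.14 to 0.69 for anti-PD-1 antibody and combination, which passes the limit of 0.1 in each pair, while it was -0.23 to 0.47 for vehicle and combination, -0.18 to 0.37 for vehicle and DSP-0509 and 0.086 to 0.65 for the single agents, which does not pass. Alternatives changed the pseudocount, filter, scaling, background, weights, adjustment, samples fitted and block, or left tumors out. Running the F test under them and the ratio to leukocyte markers were added after seeing the data. The limma step was tested on simulated data. Promoters are RefSeq sequences of GRCm38.p6. Protein sequences were not used here.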

Additional observations from a re-analysis of the deposited data

How the results depend on the processing

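Each member's log2 fold change was recomputed in 26 alternatives, and of 1253 values 1139 kept direction and side of the threshold, 38 gained the call, 16 lost it and 60 changed sign, none of these with an adjusted p under 0.05. Of the 60, 55 belonged to values under 0.2 in size. Irf1 in the combination against vehicle was called throughout, and Irf3 was called in the 2 scalings named above. The count of members called in the combination against vehicle (2 as deposited) was 1 with no filter, with the negative probe mean subtracted, with Benjamini-Yekutieli adjustment, with only the groups compared and with the methods' t-test, 6 when rescaled to housekeeping genes or with no adjustment, 5 with array weights and 4 without the 4 tumors numbered 1. For DSP-0509 against vehicle (0 as deposited) it was 1 with a pseudocount of 10, a filter of 50, housekeeping genes, array weights or no adjustment. For anti-PD-1 antibody against vehicle (0) it was 3 with array weights and 1 with no adjustment, for the combination against DSP-0509 (0) 2 with no adjustment, and against anti-PD-1 antibody (0) 1 with array weights or no adjustment. The F test (1) called 0 with quantile normalization, centring or Benjamini-Yekutieli adjustment and 5 with array weights. With the replicate number blocked, whose pairing rests on the data alone, the counts were 1 for anti-PD-1 antibody against vehicle (Irf1), 3 for the F test and 0 in the comparisons not named here. Where tumors share only a number, the block called 1 member for DSP-0509 against vehicle (Irf1, adjusted p = 0.0218) and 6 for the combination against vehicle (Irf1, Irf2, Irf4, Irf5, Irf7 and Irf8, adjusted p of at most 0.0465). Rescaling to housekeeping genes called these 6 as well. Leaving out 1 tumor gave 0 to 1 members in the DSP-0509 comparison with vehicle, 0 in that of anti-PD-1 antibody, 1 to 4 in that of the combination (4 without the first anti-PD-1 antibody tumor) and 0 to 1 for the F test.

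Signs turned in these cases. With quantile normalization, Irf2 gave -0.090 and Irf3 -0.16 for DSP-0509 against vehicle, Irf4 -0.031 for anti-PD-1 antibody against vehicle, Irf2 -0.019 for the combination against vehicle and -0.050 against anti-PD-1 antibody, and Irf7 -0.022 for DSP-0509 against anti-PD-1 antibody. With centring, Irf2 gave -0.14 (DSP-0509), -0.12 (the antibody) and -0.19 (combination) against vehicle, and -0.055 and -0.070 for the combination against DSP-0509 and anti-PD-1 antibody, Irf3 gave -0.18 for DSP-0509 against vehicle, and Irf5 and Irf8 gave 0.049 and 0.057 for DSP-0509 against anti-PD-1 antibody. Irf3 for anti-PD-1 antibody against vehicle gave 0.013 with housekeeping genes, 0.11 with array weights and 0.10 without the tumors numbered 1. With array weights, Irf1, Irf3 and Irf7 gave -0.042, -0.030 and -0.28 for DSP-0509 against anti-PD-1 antibody, and the interaction was -0.087 for Irf4 and 0.15 for Irf7. Without the tumors numbered 1, Irf7 gave -0.025 for DSP-0509 against vehicle, Irf1, Irf3 and Irf7 gave -0.16, -0.026 and -0.41 for DSP-0509 against anti-PD-1 antibody, and the interaction was 9.62e-05 for Irf1 and 0.43 for Irf7. The Irf4 to Irf5 ratio gave 0.78 with negative probes subtracted.

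Leaving out 1 tumor moved DSP-0509 against anti-PD-1 antibody over -0.069 to 0.16 for Irf1, -0.10 to 0.13 for Irf3, -0.14 to 0.35 for Irf4, -0.34 to 0.14 for Irf5, -0.27 to 0.20 for Irf7 and -0.37 to 0.22 for Irf8, and the interaction over -0.22 to 0.37 for Irf4, -0.47 to 0.028 for Irf5, -0.38 to 0.16 for Irf7 and -0.39 to 0.21 for Irf8. Irf3 ran over -0.019 to 0.094 for DSP-0509 and -0.10 to 0.12 for anti-PD-1 antibody against vehicle, the Irf7 to Irf3 ratio over 0.83 to 1.30 and the Irf4 to Irf5 ratio over -0.13 to 0.24. The causes were not tested. A planned count model was not run, since molecule counts could only be estimated from the steps of the deposited values. Irf4 and the type I interferon genes are limited by counts near the negative probes.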
